A study of Mus musculus with 4 samples.

Results

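The genes of the DNA replication machinery were followed in mouse pachytene spermatocytes treated with BMH21. They were taken by name from the deposited table: the MCM, ORC, GINS, RFC, RPA and primase families, the subunits of DNA polymerases alpha, delta and epsilon, and Pcna, Cdc6, Cdc7, Cdc45, Cdt1, Gmnn, Fen1, Timeless, Tipin, Clspn, Wdhd1 and Ticrr. The names matched 51 of 15733 protein-coding genes, all 51 of them autosomal. Pola1, the catalytic subunit of polymerase alpha, was not analysed here. The name pattern also took Mcm3ap, which encodes the mRNA export factor GANP and is no helicase subunit, and Mcm8 and Mcm9, a helicase pair known for homologous recombination. Suspensions of single mouse testis cells were held ex vivo for 12 h with BMH21 at 2.5 µM or with DMSO alone (mock). Staining with a Hoechst DNA dye then served to sort out the pachytene cells. BMH21 binds between DNA bases, and its best-known effect is to block RNA polymerase I. Each condition had 2 libraries, which the labels call biological replicates. Strain and age of the animals are not given in the sources used here.

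DNA is replicated once before meiosis, in preleptotene spermatocytes, so pachytene cells are past their last S phase. The origin recognition complex marks replication origins, Cdc6 and Cdt1 load the ring of MCM2 to MCM7 on them, and Cdc45 and GINS turn that ring into the active helicase. Polymerase alpha with its primase lays the primers, polymerases delta and epsilon extend them, RFC loads the sliding clamp PCNA, and RPA coats single-stranded DNA. Several of these proteins are also known from DNA repair and from recombination in meiotic prophase.

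Library totals were 30964370 to 41548269 counts, and levels are given as CPM, the usual depth-scaled counts, with library sizes scaled by TMM factors. The sorted cells carried most of the listed pachytene messages, led by Ldhc at 4375 CPM and Hspa2 at 1649 CPM in mock. H1f6 of the same list was at only 0.455 CPM. The list summed to 9812 to 10000 CPM in mock and 9977 to 10147 in BMH21. Of its 10 genes 3 were called higher, Sycp3 with the largest change (0.46), and 4 lower, Piwil1 with the largest (-0.16). Spermatid markers summed to 299.6 to 302.1 CPM in mock against 309.6 to 311.3 in BMH21, led by Prm2 and Gsg1, with 0 of 10 called (edgeR unadjusted p under 0.05 for 1 higher and 0 lower; DESeq2 0). Messages of Sertoli cells (2 of 8 list genes analysed here, led by Amhr2 and Clu), Leydig cells (3 of 5, led by Star and Insl3), peritubular and vascular cells (4 of 5, led by Pecam1 and Acta2) and blood cells (3 of 6, led by Ptprc and Lyz2) each summed to under 10 CPM in every library, and the only call among them was Star, lower with a log2 fold change of -0.50, which was lost without BMH21 replicate 1 (-0.44). Of 7 spermatogonial markers tested, Sohlh2 was called higher (0.582 to 5.62 CPM, log2 fold change 3.28) and Kit (-0.58) and Zbtb16 (-0.95) lower. Kit lost its call without any 1 library (-0.64 to -0.51), by DESeq2 (-0.58) and in a fit blocked on replicate number (-0.58), and Zbtb16 without mock replicate 2 (-0.74) or BMH21 replicate 1 (-0.77). The list summed to 832 to 845 CPM in mock against 825 to 832 in BMH21, of which Dmrtb1 gave 819 and 807 and Gfra1 8.54 and 8.29. Among 7 tested markers of preleptotene and S phase, Ccne2 (26.6 to 51.5 CPM, 0.95), Ccne1 (0.71) and Top2a (0.08) were called higher and 0 lower (edgeR unadjusted p under 0.05 for 3 higher and 0 lower; DESeq2 1 and 0). This list (7 of 9 genes analysed here, without Stra8 and Tk1) summed to 1088 to 1093 CPM in mock against 1121 to 1166 in BMH21. Most of that sum came from Meioc (600 and 611 CPM) and Top2a (367 and 389 CPM). Ccne1 lost its call by DESeq2 (0.71) or without mock replicate 2 (0.59) or BMH21 replicate 2 (0.61), and Top2a in DESeq2 (0.08), under upper quartile scaling (0.04) and without mock replicate 1 (0.09) or 2 (0.08) or without BMH21 replicate 2 (0.04). The part of these markers in the results was not tested.

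Replication messages were called as higher or lower about as often as all messages. The 14 called members belong to 8 of the 10 roles described here, and none to polymerase delta. Of 50 members tested, 8 rose and 6 fell (16.0% and 12.0%; quasi-likelihood test of edgeR, p adjusted by Benjamini-Hochberg over all genes, under 0.05). Over all 13793 genes tested, 16.5% were called higher and 12.5% lower, so the members' shares lay near those of all tested genes. The median level in mock was 17.5 CPM for members and 8.08 CPM for all genes, and abundant genes were called more often. Among non-member genes of 10 to 100 mean CPM the shares were 20.3% and 16.3%, against 18.5% and 11.1% of the 27 members there. At 100 CPM or more they were 25.4% and 19.1%, against 14.3% and 28.6% of 7 members. The members' median log2 fold change was 0.00, as was that of all tested genes, and the median size of the change was 0.16 against 0.18. The members' summed level was 2543 and 2541 CPM in the mock libraries and 2522 and 2530 CPM in the BMH21 libraries. Upper quartile scaling, which shifts all log2 fold changes by a median of -0.05, gave 8 higher and 11 lower. Over all 13793 tested genes it gave 1805 higher and 2480 lower, against 2282 and 1731 with TMM factors. In bulk libraries fewer cells of a type and less RNA per cell cannot be told apart.

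**Figure D1:**
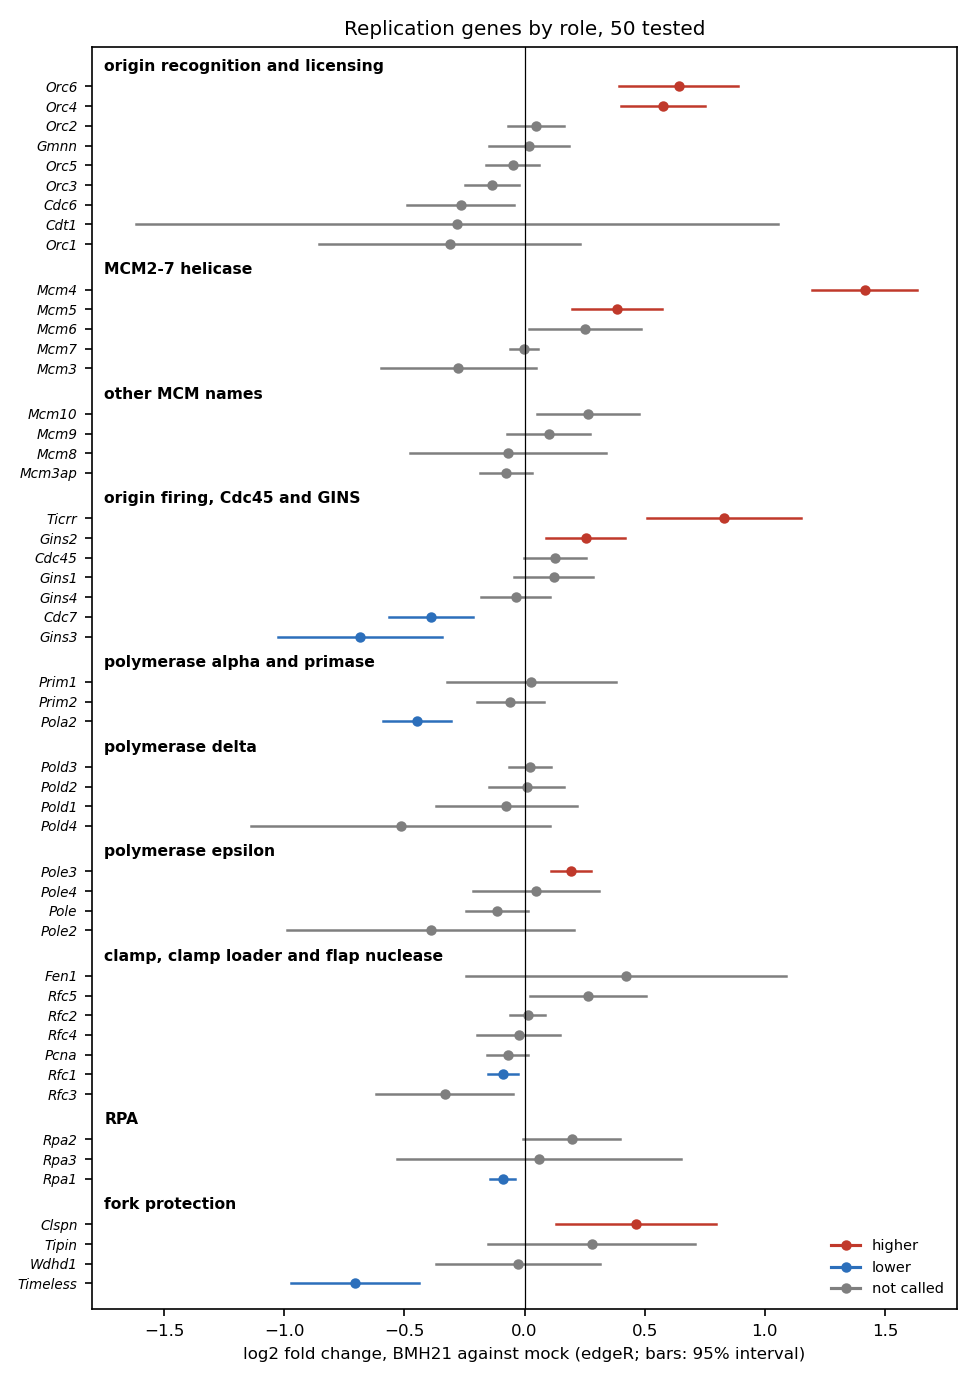
Log2 fold change of each of the 50 tested replication genes, BMH21 against mock, with its 95% interval from the edgeR fit (n = 2 libraries per group). Genes are ordered by role, and the 8 called higher (red) and 6 called lower (blue) are spread over most roles, with Mcm4 farthest from 0.

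**Figure D2:**
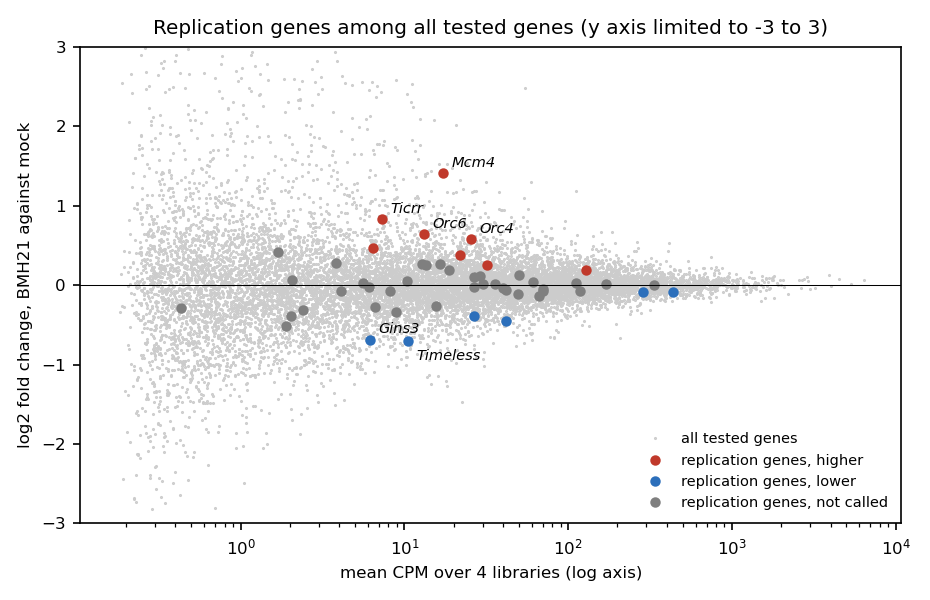
Log2 fold change of all 13793 tested genes (light grey points) against their mean CPM on a log axis, with the replication genes on top. The y axis stops at 3 in either direction and leaves out 260 genes; all 50 tested replication genes lie inside it, and Mcm4 is the highest of them.

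Mcm4 was the member with the largest change. Timeless, Gins3, Pola2 and Cdc7 were the called members that fell by more than 0.3 on the log2 scale. Uncalled estimates below -0.3 were those of Pold4 (-0.52), Pole2 (-0.39), Rfc3 (-0.33) and Orc1 (-0.31). In 15 of the 50 both BMH21 libraries lay above both mock libraries and in 17 below them; over all tested genes the shares were 30.9% and 29.9%. Among the 36 members not called, 17 had a positive and 19 a negative estimate. For 27 of these 36 the 95% interval of the change stayed within 1.5-fold in either direction, and for the other 9, most of them weakly expressed, it reached past that size. Mcm2 alone was too low to pass the filter on low counts and was not tested in this fit.

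Promoter sequences are shown for 5 members, chosen after their values were seen, to set genes that rose, fell or were not called beside each other. RefSeq windows of 300 bases on GRCm38.p6, from 250 before to 50 after the start, matched 42 of the 51 members by symbol. They were searched on both strands for an E2F motif (TTTCCCGC, TTTCGCGC, TTTGCCGC or TTTGGCGC), the CCAAT box (CCAAT) and the CHR element (TTTGAA or TTCGAA); E2F is the factor family best known for driving replication genes. Capitals mark the matches, which run together where 2 matches overlap.
Mcm5, higher, chr8:75109259-75109558, plus strand: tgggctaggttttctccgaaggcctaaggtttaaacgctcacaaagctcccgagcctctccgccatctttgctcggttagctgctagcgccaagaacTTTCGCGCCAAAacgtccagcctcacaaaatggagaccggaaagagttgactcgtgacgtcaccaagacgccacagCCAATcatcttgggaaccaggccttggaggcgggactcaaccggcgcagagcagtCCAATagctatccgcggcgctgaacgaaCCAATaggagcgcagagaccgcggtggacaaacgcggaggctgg
Mcm6, not called, chr1:128359656-128359955, minus strand: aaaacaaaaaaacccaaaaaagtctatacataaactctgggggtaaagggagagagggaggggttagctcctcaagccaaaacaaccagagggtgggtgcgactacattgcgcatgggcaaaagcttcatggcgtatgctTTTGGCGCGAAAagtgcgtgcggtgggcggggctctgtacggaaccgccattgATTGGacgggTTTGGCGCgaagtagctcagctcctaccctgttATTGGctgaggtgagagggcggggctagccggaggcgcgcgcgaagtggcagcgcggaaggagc
Ticrr, higher, chr7:79659946-79660245, plus strand: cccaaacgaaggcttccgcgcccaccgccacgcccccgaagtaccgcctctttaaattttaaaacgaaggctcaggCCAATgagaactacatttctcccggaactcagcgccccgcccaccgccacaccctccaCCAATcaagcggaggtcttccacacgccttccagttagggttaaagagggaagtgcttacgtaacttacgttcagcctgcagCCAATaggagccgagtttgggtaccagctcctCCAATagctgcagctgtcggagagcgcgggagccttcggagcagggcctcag
Gins3, lower, chr8:95633309-95633608, plus strand: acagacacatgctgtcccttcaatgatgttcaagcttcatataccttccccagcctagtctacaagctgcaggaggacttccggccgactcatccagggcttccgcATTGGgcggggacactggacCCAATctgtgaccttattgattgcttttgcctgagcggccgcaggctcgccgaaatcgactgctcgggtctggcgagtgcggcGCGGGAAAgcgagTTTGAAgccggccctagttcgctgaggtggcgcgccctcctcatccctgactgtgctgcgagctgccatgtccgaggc
Pola2, lower, chr19:5964157-5964456, minus strand: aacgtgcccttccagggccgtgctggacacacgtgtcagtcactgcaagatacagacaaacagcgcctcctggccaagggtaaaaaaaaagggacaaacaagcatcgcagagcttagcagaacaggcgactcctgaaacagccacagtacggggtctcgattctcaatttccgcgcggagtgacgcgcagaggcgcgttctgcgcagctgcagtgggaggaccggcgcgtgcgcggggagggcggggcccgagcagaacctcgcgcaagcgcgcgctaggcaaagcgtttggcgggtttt

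The E2F motif occurred in the window of 16 of 42 members (38.1%), against 2.6% of 27025 genes with a window and 4.45% of the 10574 tested genes among them. Mcm6 had 3 matches, Mcm5 had 2 that overlap in 1 run, Gins3 had 1, and Ticrr and Pola2 had 0. By call, it was found in 2 of 6 members that rose, 1 of 6 that fell and 13 of 29 that were not called. A CCAAT box lay in 59.5% of members, 41.1% of all genes and 42.7% of the tested genes, with 4 matches in Ticrr and 3 in Mcm5. It was present in 5 of 6 members that rose, 3 of 6 that fell and 16 of 29 that were not called. A gene with several windows was counted when any of them matched. The CHR element was in 19.0% of members, among them Gins3, in 21.7% of all genes and in 17.1% of the tested genes. The windows of Timeless and Pole4 lie 6001 and 52491 or more bases inside the annotated gene start, so they are not the outermost promoters of these genes. Those of Mcm7 (539 or more bases), Mcm9 (482) and Cdc6 (350) also lie inside the gene start. Mcm4 and Gins2, both called higher, had no window and are in none of the member counts. A match is a description of the letters and no binding was measured.

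At the origin, Orc4 and Orc6 rose, and no other subunit of the recognition complex was called. Of 9 genes of origin recognition and licensing tested, 2 rose and 0 fell (edgeR unadjusted p under 0.05 for 2 higher and 2 lower; DESeq2 2 and 0). Orc4, an AAA+ subunit of the complex (ENSMUSG00000026761.13, chromosome 2, 48902824 to 48950277 on GRCm38), was at 20.4 and 20.9 CPM in mock against 30.9 and 30.6 CPM in BMH21. The groups were far apart relative to their spread, and the log2 fold change was 0.58 ± 0.09 (SE), 1.49-fold (edgeR adjusted p = 1.80e-07). Orc6, the smallest subunit (ENSMUSG00000031697.13, chromosome 8, 85299632 to 85308278), was at 10.7 and 9.82 CPM in mock against 13.8 and 18.2 CPM in BMH21. The BMH21 libraries lay above the mock libraries but differed among themselves, and the log2 fold change was 0.64 ± 0.12 (SE) (edgeR adjusted p = 2.68e-05). Without BMH21 replicate 2 the change of Orc6 was 0.43, still called. The exons of Orc6 share 171 bases with Vps35 on the opposite strand, a gene at 225 and 261 CPM that was also called higher (0.21); those of Orc4 share bases with Acvr2a (446) and Mbd5 (136), neither of them called. In all 17 members share exon bases with a gene on the opposite strand. Besides Orc6, these include Cdc45 with Ufd1 (209 bases), Orc2 with Nif3l1 (1150) and Rfc4 with Eif4a2 (194). Ufd1, Nif3l1 and Eif4a2 were called higher. The kit keeps strand, but no source used here states how the counting treated it, and its part in these values was not tested.

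Orc2, Orc3 and Orc5 were the more abundant subunits, at 59.9, 69.7 and 71.7 CPM in mock, with log2 fold changes of 0.05, -0.14 and -0.05 that were not called. Orc3 was called lower without BMH21 replicate 2 (-0.21), under upper quartile scaling (-0.18) and with only genes of at least 5 CPM tested (-0.14). Orc1, the large subunit, was low at 2.55 and 2.75 CPM in mock against 1.93 and 2.32 CPM in BMH21 (-0.31, 95% interval -0.86 to 0.23). The loader Cdc6 stood at 16.7 and 17.3 CPM in mock against 15.5 and 12.8 CPM in BMH21, without overlap, but was not called (-0.27, edgeR adjusted p = 0.0644). Cdc6 was called lower without BMH21 replicate 1 (-0.41), under upper quartile scaling (-0.31) and with only genes of at least 5 CPM tested (-0.27), while without BMH21 replicate 2 its change was -0.14. Cdt1, its partner in loading, was near the limit of detection at 0.270 to 0.576 CPM in all 4 libraries. Geminin (Gmnn), the inhibitor of Cdt1, was at 30.2 ± 0.464 CPM in mock against 30.6 ± 3.73 CPM in BMH21 (SD, n = 2 each), with an interval of -0.15 to 0.19 on the log2 scale.

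The MCM2-7 ring held the largest change of all members. Of its 5 tested subunits 2 rose and 0 fell (edgeR unadjusted p under 0.05 for 3 higher and 0 lower; DESeq2 2 and 0). Mcm4 (ENSMUSG00000022673.6, chromosome 16, 15623897 to 15637400, minus strand) was at 9.10 and 9.66 CPM in mock against 23.1 and 26.8 CPM in BMH21. Every BMH21 library was thus more than 2-fold above every mock library. Its log2 fold change was 1.42 ± 0.11 (SE), 2.67-fold (edgeR adjusted p = 1.47e-17), and 1.30 to 1.52 when any 1 library was left out. Mcm5 (ENSMUSG00000005410.7, chromosome 8, 75109569 to 75128439) was at 19.1 and 18.9 CPM in mock against 25.8 and 24.0 CPM in BMH21, a log2 fold change of 0.39 ± 0.09 (SE) (edgeR adjusted p = 8.33e-04). Its groups were separate and its replicates close together.

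The other ring subunits did not pass the test. Mcm6 was at 12.2 and 12.5 CPM in mock against 14.6 and 14.8 CPM in BMH21 (0.25, 95% interval 0.02 to 0.48, edgeR adjusted p = 0.0986). Mcm3 was at 7.29 and 7.23 CPM in mock against 6.34 and 5.67 CPM in BMH21 (-0.28). Mcm7, the most abundant subunit, was at 335, 330, 328 and 336 CPM over the 2 mock and then the 2 BMH21 libraries, with a log2 fold change of -0.00 (95% interval -0.06 to 0.05). Mcm2 had only 6 and 4 counts in mock and 14 and 2 in BMH21. Summed per group these are 10 counts (95% exact Poisson interval 4.80 to 18.4) and 16 counts (9.15 to 26.0), intervals that overlap and cover counting error only. The messages of a ring built from 1 copy of each subunit were present at very different levels.

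Of the 4 tested genes that share the MCM name but not the ring 0 were called (edgeR unadjusted p under 0.05 for 1 higher and 0 lower; DESeq2 0). Mcm10, an initiation factor that binds the loaded ring, was at 14.8 and 15.2 CPM in mock against 18.5 and 17.5 CPM in BMH21 (0.26, edgeR adjusted p = 0.0527, just outside the threshold). Mcm10 was called higher with TMM factors from autosomal genes (0.27) and with only genes of at least 5 CPM tested (0.26). Mcm8 (4.17 to 3.99 CPM, -0.07), Mcm9 (25.8 to 27.7 CPM, 0.10) and Mcm3ap (72.0 to 68.3 CPM, -0.08) completed the group. Leaving out Mcm3ap leaves 49 tested members and the same counts of 8 higher and 6 lower.

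Among the factors that fire the loaded origin, 2 of 7 rose and 2 fell. Ticrr, which encodes the Cdc45-loading factor treslin (ENSMUSG00000046591.11, chromosome 7, 79660196 to 79698148), was at 5.24 and 5.28 CPM in mock against 8.06 and 10.6 CPM in BMH21. It rose by 0.83 ± 0.16 (SE) on the log2 scale, 1.78-fold (edgeR adjusted p = 2.46e-05). Cdc7, the kinase that phosphorylates the MCM ring (ENSMUSG00000029283.18, chromosome 5, 106964322 to 106984432), was at 31.2 and 29.5 CPM in mock against 21.5 and 24.8 CPM in BMH21. It fell by 0.39 ± 0.09 (SE) (edgeR adjusted p = 2.87e-04).

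GINS, a complex of 4 proteins, had 1 message higher and 1 lower. Gins2 (ENSMUSG00000031821.12, chromosome 8, 120578633 to 120589304) was at 28.2 and 29.9 CPM in mock against 37.5 and 31.7 CPM in BMH21, a log2 fold change of 0.25 ± 0.08 (SE) (edgeR adjusted p = 0.0140). DESeq2 (0.25) did not call Gins2, and its call was lost when mock replicate 1 (0.21) or BMH21 replicate 1 (0.13) was left out. In all 2758 of the exon bases of Gins2 lie over exons of Gse1 on the opposite strand. Gins3 (ENSMUSG00000031669.11, chromosome 8, 95633453 to 95645060) was at 7.58 and 7.71 CPM in mock against 4.17 and 5.32 CPM in BMH21. It fell by 0.68 ± 0.17 (SE), to 0.622 of its mock level (edgeR adjusted p = 0.00106), and by 0.52 to 0.88 with any 1 library left out. Gins1 (27.7 to 30.1 CPM, 0.12) and Gins4 (40.8 to 39.8 CPM, -0.04) were not called, nor was Cdc45, the helicase cofactor, at 47.6 and 48.9 CPM in mock against 53.6 and 51.7 CPM in BMH21 (0.13).

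**Figure D3:**
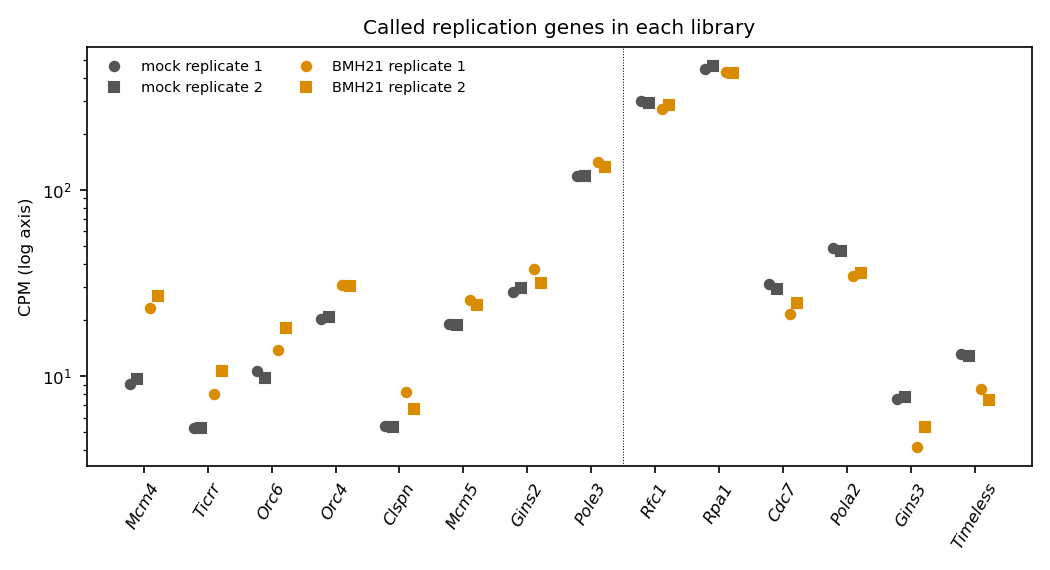
CPM on a log axis of the 14 called replication genes in each of the 4 libraries (grey mock, orange BMH21; circles replicate 1, squares replicate 2), with the 8 higher genes left of the dotted line and the 6 lower genes right of it. No called gene has overlapping groups, and the gap is widest for Mcm4 and narrow for Rfc1 and Rpa1.

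Among the polymerase genes, 1 accessory subunit of alpha was called lower and 1 of epsilon higher. Pola2, the B subunit of polymerase alpha (ENSMUSG00000024833.16, chromosome 19, 5940542 to 5964202, minus strand), was at 48.7 and 47.0 CPM in mock against 34.5 and 35.7 CPM in BMH21. It fell by 0.45 ± 0.07 (SE), to 0.733 of its mock level (edgeR adjusted p = 4.85e-07), with little spread within either group. The primase subunits that share its complex had small estimates that were not called. Prim1, the catalytic subunit, was at 5.93 and 5.15 CPM in mock against 5.68 and 5.67 CPM in BMH21 (0.03 ± 0.18 (SE), edgeR adjusted p = 0.938). Prim2, the large subunit, was at 42.2 and 42.9 CPM in mock against 40.4 and 41.2 CPM in BMH21 (-0.06 ± 0.07 (SE), edgeR adjusted p = 0.600). Of these 3 tested subunits 1 fell and 0 rose (edgeR unadjusted p under 0.05 for 0 higher and 1 lower; DESeq2 0 and 1).

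None of the 4 subunits of polymerase delta was called by edgeR or DESeq2, and 0 had an unadjusted edgeR p under 0.05. The catalytic subunit Pold1 was at 8.39 CPM in mock against 7.98 CPM in BMH21, Pold2 at 35.5 and 35.6 CPM, Pold3 at 111 and 113 CPM and the small Pold4 at 2.22 and 1.56 CPM. On the log2 scale the 95% interval was -0.07 to 0.11 for Pold3 and, at the low level of Pold4, -1.14 to 0.11. In polymerase epsilon 1 of 4 rose and 0 fell (edgeR unadjusted p under 0.05 for 1 higher and 0 lower; DESeq2 1 and 0). Pole3, a histone-fold subunit that also serves in chromatin remodelling (ENSMUSG00000028394.10, chromosome 4, 62522649 to 62525068), was at 119 and 119 CPM in mock against 141 and 132 CPM in BMH21. Its change was small, 0.19 ± 0.04 (SE) on the log2 scale (edgeR adjusted p = 1.77e-04). Its histone-fold partner Pole4 was at 10.2 and 10.6 CPM (0.05), the catalytic subunit Pole at 51.4 and 47.4 CPM (-0.12) and Pole2 at 2.32 and 1.76 CPM (-0.39), with none of these called. Under upper quartile scaling Pole was called lower (-0.16). Exons of Pole2 share 245 bases with a predicted gene on the same strand, which was at 23.9 CPM in mock and called lower (-0.27). The part of this overlap in the value of Pole2 was not tested.

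In the clamp and its loader Rfc1 alone was called, with a small change. Among Pcna, Fen1 and the 5 RFC genes 1 fell and 0 rose (edgeR unadjusted p under 0.05 for 1 higher and 2 lower; DESeq2 0 and 0). Pcna was at 121 and 122 CPM in mock against 115 and 116 CPM in BMH21, separate but not called (-0.07, 95% interval -0.15 to 0.01). Rfc1, the large subunit of the loader (ENSMUSG00000029191.17, chromosome 5, 65261850 to 65335670), was at 301 and 292 CPM in mock against 272 and 285 CPM in BMH21. It fell by 0.09 ± 0.03 (SE) (edgeR adjusted p = 0.0181). DESeq2 (-0.09) did not call Rfc1, and its call was lost when mock replicate 1 (-0.06) or BMH21 replicate 1 (-0.06) was left out. Rfc2 was at 168 and 170 CPM (0.01), Rfc4 at 26.6 and 26.2 CPM (-0.02), Rfc5 at 11.6 and 14.0 CPM (0.26) and Rfc3 at 9.89 and 7.88 CPM (-0.33), and none of them was called. Rfc3 was called lower without mock replicate 2 (-0.44) and under upper quartile scaling (-0.38), as was Pcna under the latter (-0.12). Fen1, the nuclease that trims Okazaki fragments, was low at 1.44 and 1.93 CPM, and 1909 of its exon bases lie over an annotated antisense gene.

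Rpa1, the large subunit of RPA (ENSMUSG00000000751.14, chromosome 11, 75298166 to 75348324), was the most abundant member. It was at 443 and 462 CPM in mock against 427 and 422 CPM in BMH21, and it fell by 0.09 ± 0.03 (SE) (edgeR adjusted p = 0.00554). Without mock replicate 2 the change was -0.06 and not called. Rpa2 (17.5 to 20.0 CPM, 0.20) and Rpa3 (2.00 to 2.10 CPM, 0.06) were not called.

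The fork protection genes split. Timeless (ENSMUSG00000039994.16, chromosome 10, 128232065 to 128252941) was at 13.2 and 12.8 CPM in mock against 8.51 and 7.42 CPM in BMH21. It fell by 0.71 ± 0.13 (SE), to 0.612 of its mock level (edgeR adjusted p = 1.69e-05), the largest fall among the members. Tipin, which encodes the protein that binds TIMELESS, was at 3.29 and 3.65 CPM in mock against 4.89 and 3.54 CPM in BMH21, with overlapping groups and no call (0.28, 95% interval -0.15 to 0.71). Clspn, the gene of the checkpoint mediator claspin (ENSMUSG00000042489.16, chromosome 4, 126556935 to 126593903), was at 5.43 and 5.31 CPM in mock against 8.18 and 6.69 CPM in BMH21. It rose by 0.47 ± 0.17 (SE) (edgeR adjusted p = 0.0273). The call of Clspn was lost in DESeq2 (0.47) and also without mock replicate 1 (0.49) or 2 (0.45) or without BMH21 replicate 1 (0.31). Wdhd1, which tethers polymerase alpha to the helicase, was at 6.12 and 5.98 CPM (-0.03).

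Levels per length, in CPM per kilobase of merged exons, let the subunits of a complex be compared with each other. This scale assumes that all annotated exons are used. In the MCM2-7 ring Mcm7 stood at 75.2 in mock, Mcm5 at 4.77, Mcm6 at 2.65, Mcm4 at 2.61, Mcm3 at 1.94 and Mcm2 at 0.0195. Mcm4 and Mcm6 were level in mock, with a ratio of 0.968 and 1.01 in the 2 libraries. In BMH21 the ratio was 2.06 and 2.36. Mcm4 was then near Mcm5, at 6.443 and 7.475 against 6.449 and 6.023 in the 2 BMH21 libraries. In GINS the order in mock was Gins4 (30.2), Gins1 (18.3), Gins2 (7.09) and Gins3 (2.82). The ratio of Gins2 to Gins3 was 2.46 and 2.56 in mock and 5.96 and 3.94 in BMH21, without overlap.

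Uneven levels were also seen in the other complexes. Rpa1 exceeded Rpa2 by 12.8-fold and 15.2-fold in the mock libraries and 11.8-fold and 11.0-fold in the BMH21 libraries. Among the polymerases Pole3 stood at 58.5 against 4.61 for Pole and 0.804 for Pole2, and Pold3 at 24.2 against 1.73 for the catalytic subunit Pold1. Pola2 and Prim2 were close in mock, with a ratio of 0.827 and 0.784, which was 0.611 and 0.621 in BMH21. Timeless and Tipin had a ratio of 1.22 and 1.07 in mock and of 0.532 and 0.642 in BMH21. Exons of Mcm7 share 321 bases with Ap4m1 on the opposite strand, which was at 155 CPM in mock.

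**Figure D4:**
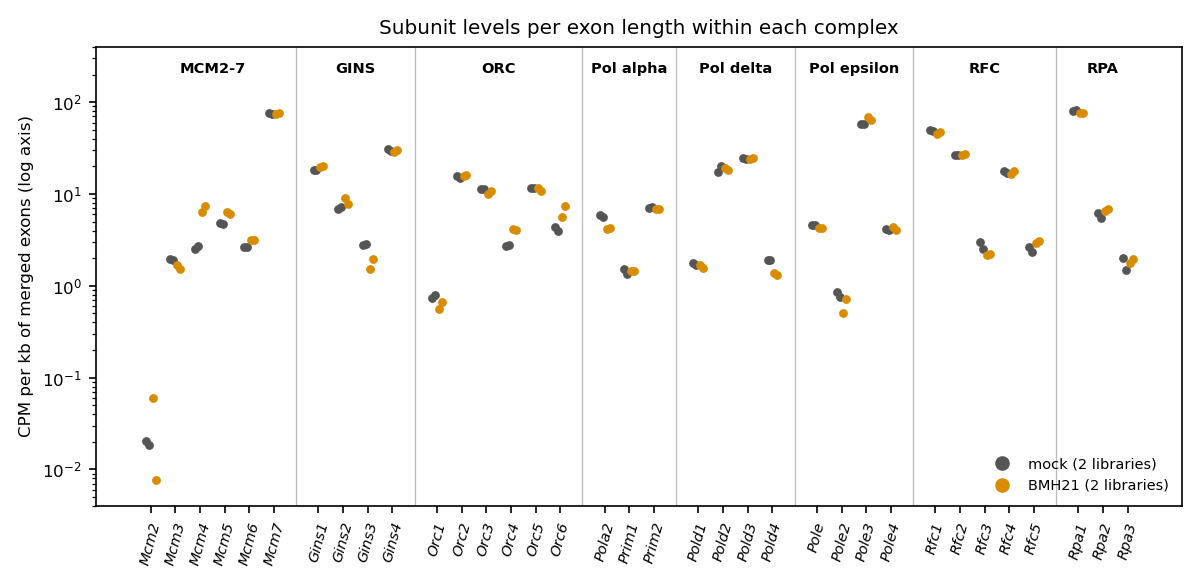
CPM per kilobase of merged exons on a log axis for the subunits of 8 complexes, 1 point per library (grey mock, orange BMH21). The MCM2-7 ring spans from 0.0195 (Mcm2) to 75.2 (Mcm7) in the mock mean, and Mcm4, Gins3 and Pola2 show a gap between the conditions.

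Some replication genes start close to a gene on the opposite strand. For 16 members, 17 protein-coding genes on the opposite strand had their annotated start within 1000 bp, and all 17 were tested. In 11 of the pairs the genes start back to back, and in 6 the starts overlap. Of the 17 neighbours 4 were called higher and 1 lower, beside 16.5% and 12.5% of all tested genes. Mcm4 starts 466 bp from Prkdc, which encodes the DNA-dependent protein kinase of end joining. Prkdc was at 19.5 and 20.5 CPM in mock against 23.1 and 21.2 CPM in BMH21, with a log2 fold change of 0.15 ± 0.10 (SE) (edgeR adjusted p = 0.277), beside 1.42 for Mcm4. The difference between the neighbours was not tested.

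In 2 pairs both genes were called. Orc6 and Vps35, a retromer gene, rose together (0.64 and 0.21). Rpa1 fell (-0.09) while Smyd4, whose start lies 109 bp away, rose from 2.35 to 7.45 CPM (1.66 ± 0.20 (SE), edgeR adjusted p = 1.77e-10). In 3 pairs the neighbour was called and the member was not. Ufd1 beside Cdc45 rose by 0.44, Rars2 beside Orc3 rose by 0.40, and a predicted gene beside Rpa3 fell by 0.16. These neighbours were named for their position, with values in view.

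**Figure D5:**
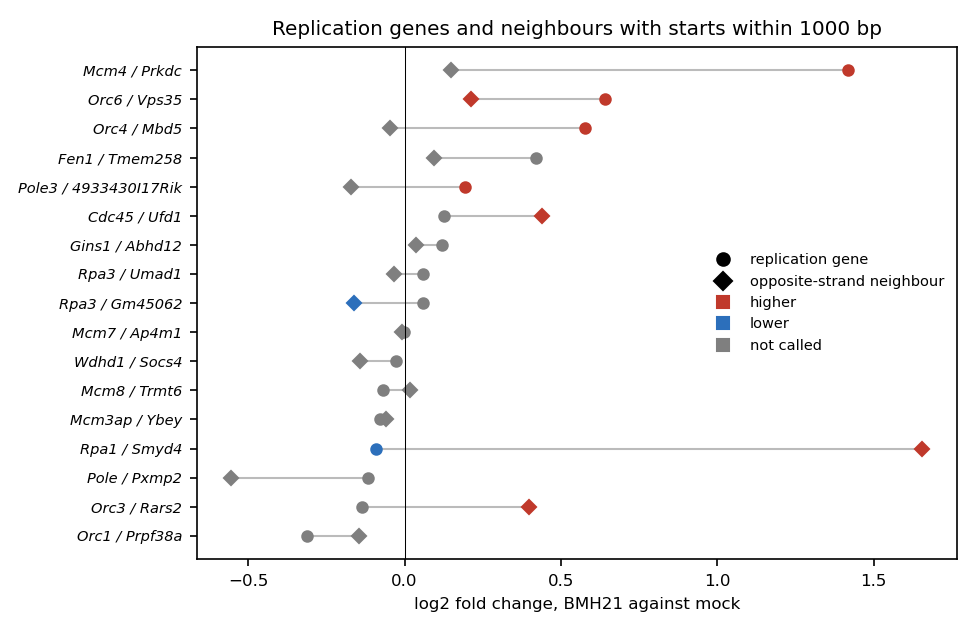
Log2 fold changes of 17 pairs of a replication gene (circle) and the protein-coding gene that starts within 1000 bp on the opposite strand (diamond), coloured by call. Mcm4 with Prkdc and Rpa1 with Smyd4 are the pairs set widest apart.

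Outside the rule, 71 tested genes of 6 lists of replication partners gave 15 higher (21.1%) and 14 lower (19.7%), with a median log2 fold change of 0.00. DESeq2 gave 13 and 9. Over all tested genes the edgeR shares were 16.5% and 12.5%. Among non-member genes of 10 to 100 mean CPM they were 20.3% and 16.3%. The median level in mock was 25.6 CPM for the partner genes and 8.08 CPM for all genes. The called genes beyond the 3 with the smallest p in each list were named after their values were seen. For those within the first 3 of a list, the edgeR adjusted p ran from 2.47e-15 (Topbp1) to 8.66e-04 (Spata22, E2f8) and the SE of the log2 fold change from 0.02 (Nasp) to 0.28 (Mcmbp). Among 10 origin and firing partners 3 rose and 3 fell. Topbp1, which binds treslin and activates the kinase ATR, rose from 56.9 to 87.8 CPM (0.62), Mcmbp, which binds MCM proteins, from 1.23 to 3.53 CPM (1.53), and Rif1, a regulator of replication timing, by 0.20. Grwd1 (-0.34), Lrwd1 (-0.09) and Dbf4 (-0.14), the activating subunit of the Cdc7 kinase, fell. Grwd1 lost its call by DESeq2 (-0.34) or without mock replicate 1 (-0.24) or BMH21 replicate 2 (-0.24), and Lrwd1 without mock replicate 1 (-0.05). Dbf4 was called (edgeR adjusted p = 0.0488) and lost its call in 6 of 11 alternatives, among them DESeq2.

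Of 17 fork and Okazaki partners 3 rose and 3 fell. Chtf8, of an alternative clamp loader, fell by 0.42, Ctc1, of the CST complex that assists polymerase alpha, by 0.27 and Rnaseh1, which removes RNA from RNA-DNA hybrids, by 0.68. Exons of Chtf8 share 2786 of their 3036 bases with another annotated gene of that name on the same strand. How reads in such shared bases were counted is not given. Poldip2 (0.17), Poldip3 (0.14) and Rnaseh2a (0.06) rose. Poldip3 lost its call under upper quartile scaling (0.09) and when mock replicate 2 (0.12) or BMH21 replicate 1 (0.11) was left out. Rnaseh2a lost it under upper quartile scaling (0.02), by DESeq2 (0.06) or without mock replicate 1 (0.08) or 2 (0.05) or without BMH21 replicate 1 (0.05). Of 13 genes of replication-coupled chromatin assembly 3 rose and 2 fell. The maintenance methyltransferase gene Dnmt1 rose from 147 to 190 CPM (0.37), and its recruiting factor Uhrf1 fell from 169 to 137 CPM (-0.30). The histone chaperone genes Nasp (0.12) and Asf1b (0.26) rose, and Chaf1b fell by 0.32, a call lost by DESeq2 (-0.32) or without mock replicate 2 (-0.23) or BMH21 replicate 1 (-0.19).

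Nucleotide supply had 0 of 7 tested genes higher and 2 lower (edgeR unadjusted p under 0.05 for 1 higher and 3 lower; DESeq2 0 and 2). These were Rrm1, the large subunit of ribonucleotide reductase (308 to 278 CPM, -0.15), and the thymidylate kinase gene Dtymk (-0.31). Of 8 meiotic partners of the MCM and RPA proteins 2 rose and 2 fell. Msh4, of the crossover complex MutSgamma, rose from 11.7 to 19.3 CPM (0.72) and Spata22 by 0.49, while Hrob, which encodes the loader of MCM8 and MCM9, fell by 0.25 and Meiob, the partner of Spata22, by 0.63. Spata22 lost its call without BMH21 replicate 2 (0.34), and Meiob by DESeq2 (-0.64) or without mock replicate 2 (-0.45) or BMH21 replicate 1 (-0.30). Exons of Spata22 share 1025 of their 1274 bases with a predicted gene on the same strand.

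In the list of E2F, pocket protein and DREAM genes 4 of 16 tested rose and 2 fell. E2f4, an E2F of quiescent cells, rose from 35.1 to 43.2 CPM (0.30), its dimer partner Tfdp1 by 0.21 and the pocket protein gene Rbl1 by 0.08. E2f8 (-0.41) and E2f7 (-0.38), the atypical repressors, fell. E2f1 was called higher (1.89) from 0.171 to 0.662 CPM. E2f1 lost its call without any 1 library (1.61 to 2.34), without the filter on low counts (1.90) and in DESeq2 (1.93), E2f7 by DESeq2 (-0.38), in the blocked fit (-0.38) or without mock replicate 1 (-0.40) or 2 (-0.36) or without BMH21 replicate 2 (-0.31), E2f8 without BMH21 replicate 1 (-0.29), and Rbl1 under upper quartile scaling (0.04) and without mock replicate 1 (0.07) or 2 (0.10) or without BMH21 replicate 2 (0.06).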

How the data were processed

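RNA was sequenced from sorted pachytene cells in 4 libraries, 2 mock and 2 BMH21. Per the submitters' processing notes, the tools were fastp, STAR, featureCounts, SAMtools and DESeq2, on the build mm10; versions, settings, strand mode and the handling of multi-mapping reads are not given in the sources used here. The deposited table holds raw counts per gene (30964370 to 41548269 per library), which were tested here. It also holds the authors' size-factor-normalised signal and, per the file headers, the authors' log2 fold changes, test score and p-values, none of which were used.

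Genes were filtered with filterByExpr (minimum count 10), scaled by TMM and compared by edgeR 4.0.16's quasi-likelihood test in R 4.3.3, with limma 3.58.1 loaded. Adjusted p (Benjamini-Hochberg) under 0.05 over all 13793 tested genes was a call. The SE is the log2 fold change divided by the root of F, and intervals are 95%. No source says that the replicates came from separate animals, so p-values measure only the spread between these libraries. Same-numbered libraries did not deviate together (correlation 0.0125). Coordinates, exon lengths and neighbours come from GENCODE M21 on GRCm38, matched by gene ID for all 51 members. The scripts were tested on simulated counts.

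The members and lists were chosen with earlier results of these data known. Full statistics are given for called members and the analysed subunits of polymerase alpha and primase. Up to 3 called genes with the smallest p per partner list are named with their log2 fold change, and levels are given for the 2 most abundant genes per marker list. Alternatives were DESeq2 1.42.0, other scalings, other filters, a replicate block and leaving out each library.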

Additional observations from a re-analysis of the deposited data

How the results depend on the processing

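The counts of 8 members higher and 6 lower were recomputed under 11 alternatives. Upper quartile scaling gave 11 members lower, and DESeq2 gave 9 partner genes lower in place of 14. Lower calls over all genes moved the same way, from 1731 to 2480 under upper quartile scaling and to 1174 by DESeq2. The cause was not tested. All other counts of members and partner genes stayed within 1.5 times their value. Leaving out 1 library at a time gave 6 to 8 members higher and 5 to 7 lower, 11 to 12 partner genes higher and 10 to 13 lower. The median log2 fold change of members ran from -0.04 to 0.01. Of the 14 called members 10 kept their call in every alternative, and 6 members not called were called in some. With the replicate number as a block, 8 members were higher and 6 lower, 15 partner genes higher and 13 lower. Among the genes followed singly, the block ended the calls of Kit and E2f7 and changed no other. The labels give no reason for pairing and same-numbered libraries did not deviate together (correlation 0.0125). With 2 libraries per group, genes under a few CPM have wide intervals. Mcm2 did not pass the filter on low counts in the main fit. Some alternatives, such as the fit without that filter and DESeq2, did include Mcm2, but its values there are not given here. An arm left with 1 library is assumed to vary like the other group.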
